A study of Mus musculus with 18 samples.

Results

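The natriuretic peptide genes, the proteases that cut their precursors and their receptors were followed in mouse cardiac ventricles after deletion of the serum response factor gene (Srf) and under phenylephrine (PE). The set holds 7 genes: the peptides Nppa and Nppb, the proteases Corin and Furin, and the receptors Npr1, Npr2 and Npr3. Its members were all probe sets that the platform annotation gives to these genes, 9 of 45101 on the array. Npr3 had 3 probe sets and each of the other 6 genes had 1. All 9 passed the filter on low signal.

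Natriuretic peptides are hormones that heart muscle cells release when they are stretched or overloaded. ANP, from Nppa, and BNP, from Nppb, are made as precursors, and the membrane protease corin and the convertase furin cut them to the active form. The active peptides act through the guanylyl cyclase receptor encoded by Npr1, which makes cGMP, and Npr3 encodes a receptor that clears them from the circulation. Npr2 encodes the related receptor for C-type natriuretic peptide. In the adult mouse, atrial muscle holds most of the ANP, and both peptide genes are widely used as markers of ventricular overload.

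Each of 18 Affymetrix arrays held the ventricular RNA of a male mouse, for which the labels give a strain of CR7BL6 and an age of 10 weeks. The mutants were called SRFHKO, and the controls were their SRF-flex2neo littermates. Mutants and controls alike had received tamoxifen intraperitoneally, 0.7 mg on 3 days. The 6 groups were control (2 hearts) and SRFHKO (4 hearts) at day 8, and control, SRFHKO, control with PE and SRFHKO with PE at day 25 (3 hearts each). PE stimulates alpha-1 adrenergic receptors and was given at 80 mg/kg/day by osmotic minipump between day 10 and day 25. The labels do not name the driver of the recombinase or the deleted part of Srf.

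Srf was read by 2 probe sets, and neither differed past the threshold between SRFHKO and control in any comparison. At day 25 without PE the differences on the log2 scale were -0.06 ± 0.19 (SE, adjusted p = 0.910) for the first and -0.54 ± 0.19 (adjusted p = 0.148) for the second. Whether these probe sets lie inside the deleted part is unknown here, so they do not check the genotype labels. Before scaling, arrays differed in brightness: their trimmed means lay between 110 and 147 at day 8 and between 46.3 and 84.9 at day 25. At day 25 SRFHKO arrays were brighter than control arrays, 70.7 to 83.0 against 46.3 to 68.0 without PE and 75.4 to 84.9 against 52.2 to 74.8 with PE. At day 8 the scaled signal of the 18S ribosomal RNA probe set was 2427 and 3071 in the control hearts and 704 to 1402 in the SRFHKO hearts. The ratio of the 3' to the 5' Gapdh probe set, a reading of RNA quality, separated the genotypes at day 8 and at day 25 without PE. At day 8 this ratio spanned 1.01 to 1.02 for the control hearts against 0.850 to 0.936 for the mutants, and at day 25 without PE it spanned 0.868 to 0.945 against 0.820 to 0.835. With PE the Gapdh ratios overlapped, at 0.846 to 0.900 against 0.824 to 0.863. The same ratio for the actin gene Actb overlapped between genotypes in all these comparisons. It spanned 2.07 to 2.52 for control hearts against 1.52 to 2.12 for mutants at day 8. At day 25 it spanned 2.00 to 2.03 against 1.83 to 2.02 without PE and 1.75 to 2.02 against 1.87 to 2.31 with PE. The part of RNA quality in the genotype differences was not tested.

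The 6 listed ventricular muscle markers had a summed scaled signal of 19271 to 32689, but 2 of them passed the threshold in comparisons of 2 groups. Myh7, the slow myosin heavy chain, had a mean of 9.46 in control hearts at day 25 and of 12.42 to 12.77 in the other groups of day 25. At day 8 its means were 11.91 in control and 11.95 in SRFHKO hearts. The untreated control hearts of day 25 were thus the lowest group. Against them Myh7 was higher by 3.00 ± 0.38 in SRFHKO hearts without PE (adjusted p = 0.00058) and by 3.31 ± 0.38 with PE in control hearts (adjusted p = 0.00113). Myl3, a ventricular myosin light chain, fell in SRFHKO hearts by 0.73 ± 0.12 without PE (adjusted p = 0.00378) and by 0.81 ± 0.12 with PE (adjusted p = 0.00147). In an added contrast, averaged over both treatments of day 25, 1 ventricular marker passed as higher and 3 as lower in SRFHKO hearts. Of 7 general heart muscle markers 3 passed there as lower, and 0 passed in each comparison of 2 groups. Among all probe sets 5.85% passed in that average. Of the 9 endothelial markers Cldn5 alone changed between genotypes at day 25 without PE (-0.81 ± 0.20, adjusted p = 0.0348). The difference between days cannot be told apart from any array batch that goes with the day, and the sample labels used here name no batch.

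The promoters of Nppa, Nppb and Corin are shown because these genes carry the results below, and because SRF binds a motif called the CArG box. Each sequence is the 250 bases before the annotated start of the gene, read from RefSeq (GRCm38.p6), in the direction of the gene. Nppa lies at chr4:148000472-148000721 on the plus strand, Nppb at chr4:147985650-147985899 on the plus strand, and Corin at chr5:72504541-72504790 on the minus strand. Capitals mark matches to the motifs described after the sequences.
Nppa: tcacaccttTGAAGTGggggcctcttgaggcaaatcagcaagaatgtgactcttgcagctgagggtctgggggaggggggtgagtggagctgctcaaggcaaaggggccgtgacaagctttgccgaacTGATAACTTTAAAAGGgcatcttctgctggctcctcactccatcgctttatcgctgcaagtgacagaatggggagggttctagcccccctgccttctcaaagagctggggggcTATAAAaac
Nppb: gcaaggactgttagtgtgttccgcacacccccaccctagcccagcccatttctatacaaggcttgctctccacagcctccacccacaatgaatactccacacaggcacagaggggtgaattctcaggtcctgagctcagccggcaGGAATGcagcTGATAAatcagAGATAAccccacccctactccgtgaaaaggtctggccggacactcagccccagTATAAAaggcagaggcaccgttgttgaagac
Corin: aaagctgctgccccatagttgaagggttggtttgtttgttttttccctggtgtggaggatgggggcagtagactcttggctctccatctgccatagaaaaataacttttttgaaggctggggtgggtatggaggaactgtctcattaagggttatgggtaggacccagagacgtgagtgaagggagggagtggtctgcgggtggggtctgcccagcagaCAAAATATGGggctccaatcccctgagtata

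RefSeq promoter windows of 300 bases, from 250 before the start to 50 after it, were found for 7 of 7 genes, 8 windows in all. None of the 8 held a full CArG box, which 1.63% of 32851 promoter windows held. With 1 letter off its 10, a CArG box matched at -116 to -107 in Nppa, at -31 to -22 in Corin and 3 times in 1 of the 2 Furin windows (-153 to -144, -25 to -16 and -8 to 2), and 19.9% of promoters held such a match. Whether such matches bear on expression was not tested. In Nppa this match directly follows a GATA site (TGATAA) at -122 to -117, so that their capitals run together. Nppb held GATA sites at -95 to -90 (TGATAA) and at -84 to -79 (AGATAA), and 18.6% of promoters held either form. Nppa also held TGAAGTG, a form of the site bound by NKX2-5, at -241 to -235 (4.02% of promoters), and Nppb held CATTCC, the M-CAT motif, on the opposite strand at -105 to -100 (14.7%). TATAAA lay at -9 to -4 in Nppa, at -31 to -26 in Nppb and at -23 to -18 in the same Furin window (13.6%). The windows of Npr1, Npr2 and Npr3 held none of these motifs. Both strands were searched for every motif. These are matches of letters in a short window, and binding was not measured.

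**Figure D1:**
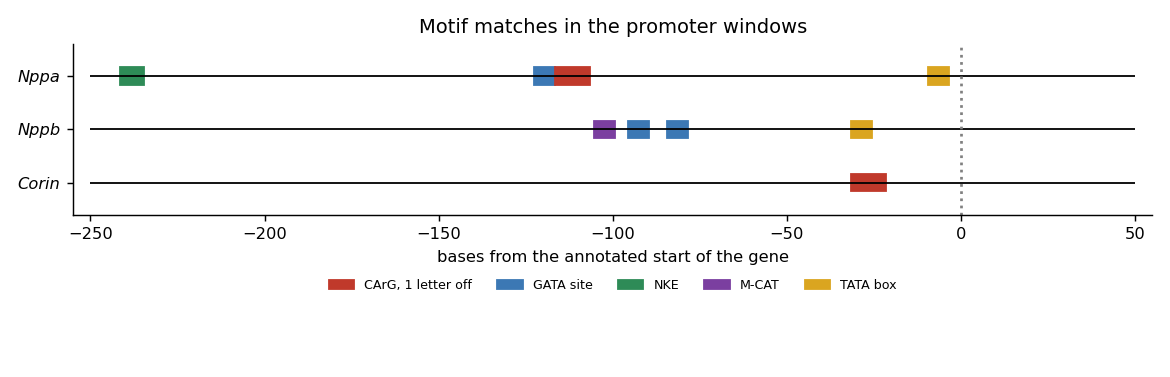
Positions of motif matches in the promoter windows of Nppa, Nppb and Corin, in bases from the annotated start of each gene; coloured boxes are matches and the dotted line is the start. Nppa and Nppb each hold a GATA site or sites and a TATA box before the start, and the match in Corin is to a CArG box with 1 letter off.

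Under PE, Nppb was higher in hearts of both genotypes, whereas Nppa did not differ past the threshold. Levels are given as log2(scaled signal + 2), where a difference of 1 is a doubling, and levels of different probe sets were not compared. In control hearts at day 25, Nppb read 11.49, 11.48 and 11.71 without PE and 12.29, 12.56 and 12.17 with PE. In SRFHKO hearts it read 11.42, 11.58 and 11.52 without PE and 12.52, 12.70 and 12.54 with PE. Every heart given PE was above every heart without it, in both genotypes.

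Nppb was 1.72-fold higher with PE in control hearts, a difference of 0.78 ± 0.28 (SE, n = 3 and 3), and 2.11-fold higher in SRFHKO hearts, 1.08 ± 0.28. Neither comparison passed the threshold in the limma fit over all 18 arrays, with p-values adjusted over 27022 probe sets (adjusted p = 0.351 and 0.136). Averaged over both genotypes, a contrast added after these values were seen, Nppb rose by 0.93 ± 0.20, or 1.90-fold (95% interval 0.52 to 1.34, adjusted p = 0.0355). This average passed with all arrays but was lost when any of 11 of the 12 day 25 arrays was left out, each in turn (adjusted p = 0.0566 to 0.113); it held only without SRFHKO with PE replicate 1.

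The error of this fit comes from all 6 groups, and the SRFHKO hearts of day 8 spread far more in Nppb (SD 0.80, n = 4) than the day 25 groups did (SD 0.08 to 0.20, n = 3 each). A fit on the 12 day 25 arrays alone, added after this was seen, gave the same differences with SE of 0.11. There Nppb passed in control (adjusted p = 0.0182), in SRFHKO (0.00121) and averaged over the genotypes (5.1e-05). Leaving out each day 25 array in turn, the average passed 12 of 12 times and the SRFHKO comparison 6 of 6 times. The control comparison passed 3 of 6 times. Its adjusted p was 0.0676 without control replicate 1, 0.0765 without control replicate 2 and 0.104 without replicate 1 of control with PE. An exact permutation test of Nppb alone within genotypes gave p = 0.005 (two-sided, 400 regroupings), the smallest it can give; the same test was run on all 9 probe sets.

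The response of Nppb to PE did not differ between genotypes past the threshold. The interaction was 0.29 ± 0.39 over all arrays (95% interval -0.53 to 1.12, adjusted p = 0.895) and 0.29 ± 0.15 over the day 25 arrays (adjusted p = 0.752).

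Nppa encodes the ANP precursor. It read 12.996, 12.89 and 13.41 in untreated control hearts of day 25, and 13.28, 13.02 and 13.29 in those given PE. In SRFHKO hearts it read 12.95, 12.997 and 12.87 without PE and 13.28, 13.17 and 12.93 with PE. The groups overlapped in both genotypes. The difference with PE was 0.10 ± 0.16 in control hearts (adjusted p = 0.879), 0.19 ± 0.16 in SRFHKO hearts (0.777) and 0.14 ± 0.12 averaged over both (95% interval -0.10 to 0.39, adjusted p = 0.678). The exact permutation test within genotypes gave p = 0.195. Nppa had the 99.9th percentile of mean level on this array, so its signal was far above the filter limit in every heart. Whether differences are narrowed at so high a signal was not tested.

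**Figure D2:**
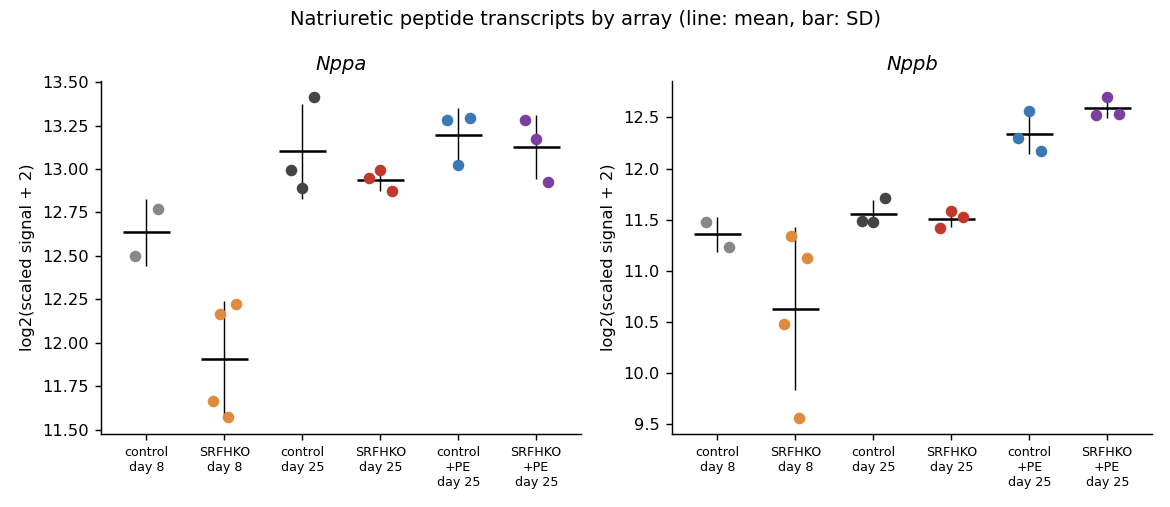
Log2(scaled signal + 2) of Nppa and Nppb in each of 18 hearts by group, with 1 point per array, the mean as a line and the SD as a bar. With PE the Nppb points of both genotypes lie between 12.17 and 12.70, above all others, and the Nppa groups of day 25 overlap.

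Among the 9 probe sets, 0 passed the threshold for PE in control hearts in the 18-array fit, where 0.0259% of all probe sets tested did, and 0 passed for PE in SRFHKO hearts, where 0.185% did. At an unadjusted p under 0.05 there were 2 in control (Nppb higher, Npr2 lower) and 3 in SRFHKO hearts (Nppb higher, 2 Npr3 probe sets lower), beside 10.05% and 9.82% of all probe sets. Averaged over both genotypes, 1 of 9 passed, Nppb, against a background of 0.551%. In the fit on the day 25 arrays alone, Nppb passed in each, against 0.0222% of probe sets for control, 0.159% for SRFHKO and 0.459% for the average. The groups did not overlap for 1 of 9 members in control hearts (background 14%) and for 3 of 9 in SRFHKO hearts (background 15.8%). The median difference over the members was -0.06 in control and -0.07 in SRFHKO hearts, beside -0.03 over all probe sets in each. For the PE by genotype interaction 0 of 9 passed the adjusted threshold, where 0.0037% of all probe sets did. At an unadjusted p under 0.05 there were 0 of 9, beside 7.39% of all probe sets.

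At day 8 both peptide transcripts had lower means in SRFHKO hearts, and neither difference passed the threshold. Nppa read 12.50 and 12.77 in the control hearts and 11.66, 12.16, 11.57 and 12.23 in the SRFHKO hearts. All 4 SRFHKO hearts were below both control hearts. The difference was -0.73 ± 0.17, 1.66-fold lower (SE, n = 2 and 4, 95% interval -1.09 to -0.37, unadjusted p = 0.000485, adjusted p = 0.0773 by limma).

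Nppb read 11.48 and 11.23 in the control hearts and 10.48, 11.34, 9.57 and 11.12 in the SRFHKO hearts of day 8. One SRFHKO heart, replicate 2, lay between the controls, and replicate 3 was the lowest of all 18 hearts for both peptides. The difference was -0.73 ± 0.30 (95% interval -1.35 to -0.11, adjusted p = 0.323). With 2 hearts against 4 an exact permutation test cannot go below p = 0.0667, and it gave 0.133 for Nppa and 0.267 for Nppb.

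Of the 9 members 0 passed at day 8, where 0.159% of probe sets did. Nppa and Nppb were the 2 with an unadjusted p under 0.05, beside 11.8% of all probe sets. The groups did not overlap for 3 of 9, namely Nppa, Corin and Npr2, beside 21.6% of all probe sets. The median difference over the members was -0.21, beside 0.04 over all probe sets.

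At day 25 neither peptide differed past the threshold between genotypes. Without PE the difference, SRFHKO minus control, was -0.16 ± 0.16 for Nppa (95% interval -0.51 to 0.18, adjusted p = 0.651) and -0.05 ± 0.28 for Nppb (-0.63 to 0.53, adjusted p = 0.949). With PE it was -0.07 ± 0.16 for Nppa (adjusted p = 0.908) and 0.24 ± 0.28 for Nppb (adjusted p = 0.788). The signs for Nppa without and with PE, and for Nppb without PE, turned positive under quantile normalization and with array brightness in the model. The change in the genotype difference between day 8 and day 25 was 0.57 ± 0.24 for Nppa (adjusted p = 0.334) and 0.68 ± 0.41 for Nppb (adjusted p = 0.517). For this interaction of day and genotype 0 of 9 members passed and 2 had an unadjusted p under 0.05, Nppa and Corin. Of all probe sets 0.0407% passed and 12.3% had an unadjusted p under 0.05.

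Nppa read lower in every heart of day 8 than in any of day 25, and so did 4 of the 9 tested atrial muscle markers, Myl7, Myl4, Sln and Dkk3. The other 5, Kcna5, Kcnj3, Kcnj5, Nr2f2 and Stk39, overlapped between the days, and group means of Kcna5 were higher at day 8 (8.03 and 7.97) than at day 25 (7.52 to 7.71). Nppa lay between 11.57 and 12.77 in the 6 hearts of day 8 and between 12.87 and 13.41 in the 12 hearts of day 25. Nppb overlapped between the days, with 9.57 to 11.48 at day 8 and 11.42 to 12.70 at day 25. The mean log2 level of Myl7, Myl4 and Sln, transcripts of atrial muscle, lay between 6.05 and 9.23 at day 8 and between 9.73 and 12.11 at day 25. Of the 10 listed atrial markers 9 passed the filter, and Bmp10 lay near or below the filter limit of 3.58, with group means of 2.83 to 3.62. The summed scaled signal of the atrial list was 1742 to 3312 at day 8 and 3877 to 15261 at day 25.

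Within day 25 the mean of Myl7, Myl4 and Sln spread widely inside groups. In SRFHKO hearts with PE it was 12.11, 11.06 and 10.00, and their Nppb levels were 12.52, 12.70 and 12.54. With this mean of each heart in the model, the Nppb difference with PE was 0.96 ± 0.18 averaged over the genotypes (adjusted p = 0.0209), beside 0.93 ± 0.20 without it. The Nppa difference of day 8 was -0.67 ± 0.16 with it (adjusted p = 0.0773), beside -0.73 ± 0.17. In whole ventricle RNA, fewer cells of a type and less RNA per cell cannot be told apart.

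**Figure D3:**
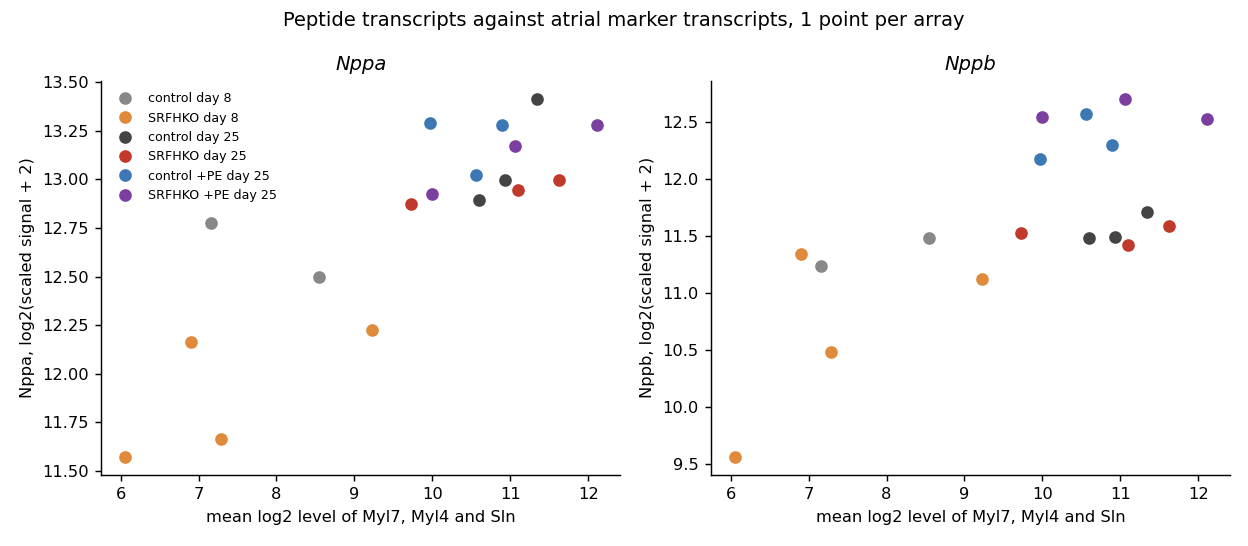
Log2(scaled signal + 2) of Nppa and of Nppb against the mean log2 level of the atrial muscle transcripts Myl7, Myl4 and Sln, with 1 point per heart coloured by group. The 6 hearts of day 8 lie below 9.23 on the horizontal axis and the 12 of day 25 lie above 9.73; hearts with PE stand above the others of day 25 for Nppb.

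As a description, the levels of Nppa and Nppb were correlated with r = 0.83 over all 18 hearts, 0.83 over the 6 of day 8 and 0.39 over the 12 of day 25. Both read from the same arrays, and the difference between days enters the first value. Among 12609 other genes read at 1 probe set each, those most like Nppa over the 18 hearts were Dpysl2 (r = 0.92), Cd9 (0.90), Creb3 (0.90), Uqcc3 (0.90) and Psma3 (0.89). The lowest were Slc41a3 (-0.91), Zfp397 (-0.90) and Chst14 (-0.89). For Nppb the highest were the collagen gene Col8a2 (r = 0.87), Dpysl2 (0.85), Creb3 (0.84), Anxa4 (0.84) and the collagen gene Col11a1 (0.84), and the lowest were Dhrs11 (-0.87), Shmt2 (-0.85) and Apbb1 (-0.84). Cd9, for example, had means of 7.48 and 7.28 at day 8 and of 8.47 to 8.69 at day 25. Of these genes, Dhrs11 alone passed the threshold in a comparison of 2 groups, at -0.83 ± 0.15 with PE in SRFHKO hearts (adjusted p = 0.0279). Among all probe sets 0.185% passed there. Dhrs11 was picked by its correlation with Nppb on these same arrays, so this call is not independent of Nppb.

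Corin, the membrane protease that activates ANP and BNP precursors, had a higher level in SRFHKO hearts at day 25 without PE. It read 10.27, 10.72 and 10.39 in control hearts and 10.67, 11.18 and 11.09 in SRFHKO hearts. The groups overlapped at the edge, since control replicate 2 lay just above SRFHKO replicate 1. Corin rose by 0.52 ± 0.12, or 1.43-fold (SE, n = 3 and 3, 95% interval 0.26 to 0.78, adjusted p = 0.0338 by limma).

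This call was lost without control replicate 1 (adjusted p = 0.134) or 3 (0.110), or SRFHKO replicate 2 (0.141) or 3 (0.142). It was also lost in the fit on the day 25 arrays alone (adjusted p = 0.0701) and with array brightness in the model (0.45, adjusted p = 0.255). SRFHKO arrays of day 25 were the brighter ones, as given above. Over all alternatives the difference lay between 0.42 and 0.68 and its adjusted p between 0.00625 and 0.255.

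With PE, Corin read 10.56, 10.41 and 10.51 in control hearts and 10.77, 10.68 and 10.72 in SRFHKO hearts, with no overlap. That difference was 0.23 ± 0.12 (adjusted p = 0.472). Averaged over both treatments, a contrast added after the values were seen, Corin rose by 0.37 ± 0.09 in SRFHKO hearts, or 1.29-fold (adjusted p = 0.0160), and in the fit on the day 25 arrays alone its adjusted p was 0.0377. This average was lost with array brightness in the model (0.31, adjusted p = 0.282). In the day 25 fit it passed 2 of the 12 times an array was left out (control replicate 2 or SRFHKO replicate 1, both without PE), and its adjusted p reached 0.0970 without SRFHKO replicate 3. The exact permutation test within treatments gave p = 0.01 (two-sided, 400 regroupings), and it was run on all 9 probe sets.

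At day 8 Corin read 10.66 and 10.50 in control hearts and 10.68, 10.72, 10.68 and 10.77 in SRFHKO hearts, all 4 above both controls. The difference was small, 0.13 ± 0.13 (adjusted p = 0.779). PE gave differences of 0.04 ± 0.12 in control (adjusted p = 0.946) and -0.26 ± 0.12 in SRFHKO hearts (adjusted p = 0.511), and the interaction was -0.29 ± 0.17 (adjusted p = 0.740).

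Corin was the 1 member of 9 past the threshold between genotypes at day 25 without PE, where 2.18% of all probe sets passed, and 1.38% did in the fit on the day 25 arrays alone. The groups did not overlap for 0 of 9 members, beside 21.3% of all probe sets. With PE 0 of 9 members passed, where 0.929% of probe sets did, and 1 had an unadjusted p under 0.05 (12.8% of all probe sets did), the second brightest Npr3 probe set. There the groups did not overlap for 2 of 9, Corin and this probe set, beside 18.1%. In the average over both treatments 1 of 9 passed, Corin, where 5.85% of all probe sets did over the 18 arrays and 4.91% over the day 25 arrays. A single call among 9 probe sets gives no reading of the set as a whole.

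Furin, the convertase that cuts many precursor proteins, differed past the threshold in no comparison. Its level lay between 6.76 and 7.54, both of which were read in control hearts with PE.

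**Figure D4:**
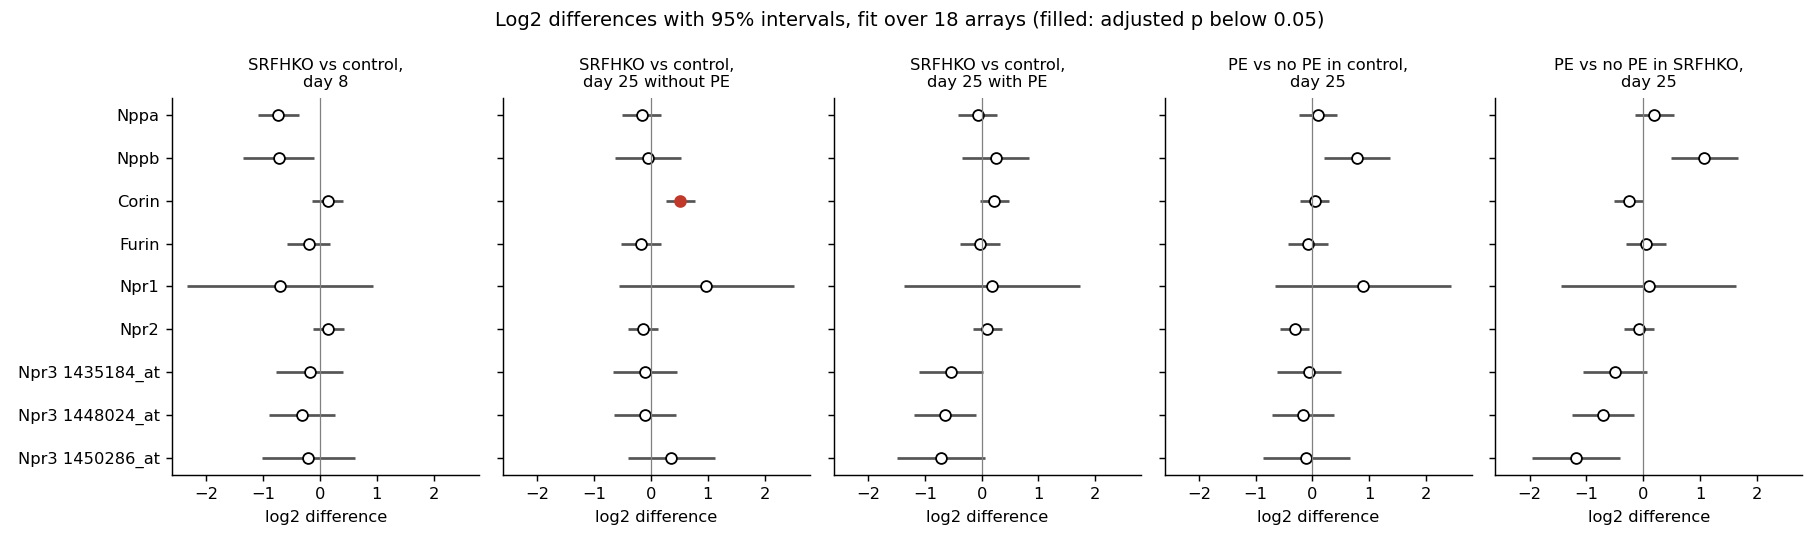
Log2 differences of the 9 probe sets in the 5 comparisons of 2 groups, from the fit over 18 arrays; points are differences, lines are 95% intervals, and a filled point has an adjusted p below 0.05; the Npr3 probe sets run from the brightest to the dimmest. The filled point is Corin in SRFHKO against control hearts at day 25 without PE (0.52); Nppb lies at 0.78 and 1.08 in the comparisons of PE.

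Npr1, which encodes the receptor of ANP and BNP, was too dim for a firm reading. Its probe set was below the filter limit on 6 of 18 arrays. It read 2.12, 1.38 and 4.995 in control hearts at day 25, a wider spread than in any other group. Its differences reached 0.98 ± 0.74 (SRFHKO against control at day 25, adjusted p = 0.524), with a 95% interval of -0.57 to 2.52. A change of that size was therefore not detectable with this probe set.

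Npr2, the receptor of C-type natriuretic peptide, read 8.47, 8.47 and 8.18 in control hearts at day 25 and 8.22, 8.11 and 7.86 with PE. The groups overlapped. The difference was -0.31 ± 0.12 (95% interval -0.57 to -0.05, adjusted p = 0.403), and in SRFHKO hearts it was -0.07 ± 0.12 (adjusted p = 0.908).

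Npr3, the clearance receptor, had its lowest day 25 levels in SRFHKO hearts with PE on all 3 probe sets, here numbered from the brightest to the dimmest, and no difference passed the threshold. On the first, SRFHKO hearts read 6.87, 6.41 and 6.79 without PE and 6.57, 6.13 and 5.88 with PE. On the second they read 5.82, 5.67 and 5.5004 without and 5.18, 4.88 and 4.81 with PE. On the third they read 5.21, 5.23 and 4.68 without and 4.45, 3.92 and 3.20 with PE. The groups with and without PE did not overlap on the last 2 probe sets and overlapped on the first.

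The differences with PE in SRFHKO hearts were -0.50 ± 0.27 (adjusted p = 0.580), -0.70 ± 0.26 (0.349) and -1.18 ± 0.37 (0.230), in the same order. In control hearts they were -0.06 ± 0.27, -0.17 ± 0.26 and -0.11 ± 0.37, with adjusted p of 0.869 to 0.964. The interaction was -0.44, -0.54 and -1.08, with adjusted p of 0.673 to 0.827, so a difference in response between genotypes was not shown. Between genotypes under PE, the differences were -0.54 ± 0.27, -0.64 ± 0.26 and -0.72 ± 0.37 (adjusted p = 0.415, 0.291 and 0.435). These comparisons share the SRFHKO hearts with PE.

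The 3 probe sets of Npr3 read 1 gene from the same arrays and are not independent. Within groups the brightest and the middle one were correlated with r = 0.58 over 18 hearts, the middle and the dimmest with r = 0.47 and the brightest and the dimmest with r = -0.06. The dimmest lay below the filter limit on 1 array, SRFHKO with PE replicate 3.

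**Figure D5:**
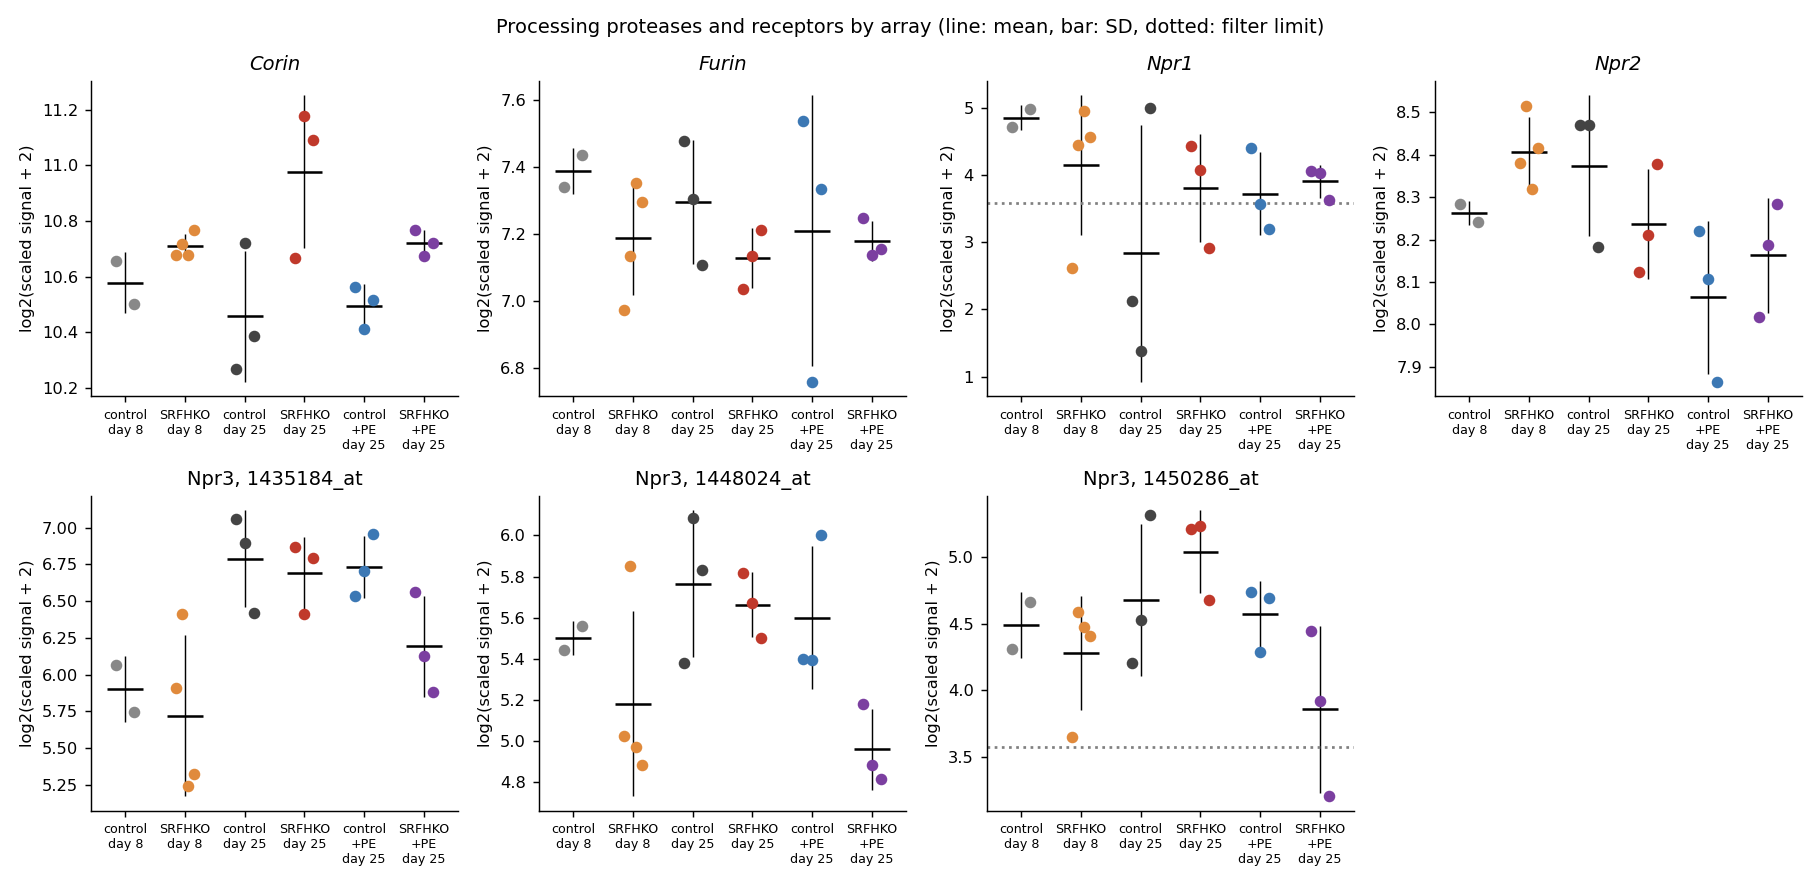
Log2(scaled signal + 2) of Corin, Furin, Npr1, Npr2 and the 3 Npr3 probe sets in each of 18 hearts by group, with 1 point per array, the mean as a line, the SD as a bar and the filter limit of 3.58 as a dotted line where it falls in range. Corin is highest in SRFHKO hearts of day 25 without PE (10.67 to 11.18), Npr1 crosses the limit, and the Npr3 points of SRFHKO hearts with PE are low among those of day 25.

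Downstream of the receptors, cGMP acts through protein kinase G and is broken down by phosphodiesterases. Of 17 listed pathway genes 16 were tested, and 1 passed the threshold in each genotype comparison of day 25, Prkg1, which encodes cGMP-dependent protein kinase 1. Among all probe sets 2.18% passed without PE and 0.929% with PE. On its brighter probe set Prkg1 lay between 6.87 and 7.38 in control and 8.17 and 8.42 in SRFHKO hearts without PE, and between 6.77 and 7.37 and 8.34 and 9.02 with PE. The groups did not overlap. Prkg1 rose 2.26-fold without PE (1.18 ± 0.21, adjusted p = 0.00981) and 2.88-fold with PE (1.53 ± 0.21, adjusted p = 0.00136). Its other probe set rose by 2.30 ± 0.30 (adjusted p = 0.000717) and 1.72 ± 0.30 (adjusted p = 0.0103). At day 8 the differences were 0.85 ± 0.23 (adjusted p = 0.111) and 1.42 ± 0.32 (adjusted p = 0.0692).

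For day 8 and for PE in either genotype, 0 of the 16 pathway genes passed, and at an unadjusted p under 0.05 there were 5, 1 and 2. Among all probe sets 11.8%, 10.05% and 9.82% had such a p, and 0.159%, 0.0259% and 0.185% passed. The largest differences at day 8 were those of Prkg2 (-1.62 ± 0.70, adjusted p = 0.360), the convertase Pcsk6 (1.02 ± 0.25, adjusted p = 0.0879) and Prkg1, given above. Under PE they were Pcsk6 (-0.56 ± 0.24, adjusted p = 0.436), Mrvi1 (-0.40) and Dpp4 (-0.40) in control hearts. In SRFHKO hearts they were Rgs2, a regulator of G protein signalling (-1.30 ± 0.29, adjusted p = 0.0793), Prkg2 (-0.67) and Pde9a (-0.52). At day 25 the group means of Rgs2 were 8.70 in control and 9.71 in SRFHKO hearts without PE, and 8.71 and 8.41 with PE. The median difference over the pathway genes was -0.11 at day 8, -0.03 and -0.04 between genotypes at day 25 without and with PE, and -0.06 and -0.09 for PE in control and SRFHKO hearts.

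Of 19 genes listed as candidate regulators of the peptide genes, Srf and its cofactors among them, 2 passed between genotypes at day 25 without PE. Of all probe sets 2.18% passed there (1.38% in the fit on the day 25 arrays). Myocd, which encodes the SRF cofactor myocardin, rose by 0.78 ± 0.18 on its brighter probe set (adjusted p = 0.0296) and by 1.03 ± 0.17 on another (adjusted p = 0.00431). Tbx20, a cardiac T-box factor, rose by 0.76 ± 0.14 on its brightest probe set (adjusted p = 0.00981). Its 2 other probe sets gave 0.56 ± 0.18 (adjusted p = 0.109) and 0.18 ± 0.54 (adjusted p = 0.899). In the other comparisons of 2 groups 0 of 19 passed, with 2 to 5 at an unadjusted p under 0.05, beside 9.82% to 12.8% of all probe sets. Averaged over both treatments, Tbx20 rose by 0.51 ± 0.10 on its brightest probe set (adjusted p = 0.00498) and Mrtfa fell by 0.49 ± 0.13 (adjusted p = 0.0297), where 5.85% of all probe sets passed. The other Tbx20 probe sets gave 0.23 ± 0.13 (adjusted p = 0.315) and 0.53 ± 0.38 (adjusted p = 0.459). In this average Myocd gave 0.40 ± 0.13 on its brighter probe set (adjusted p = 0.0721) and 0.55 ± 0.12 on the other (adjusted p = 0.00876). Under PE Myocd differed by 0.01 ± 0.18 between genotypes (adjusted p = 0.985). The largest differences were those of Egr1 (-0.64), Mef2c (-0.31) and Gata4 (0.30) at day 8, and of Mrtfa (-0.68), Fos (0.57) and Gata6 (-0.37) between genotypes under PE. For PE itself they were Mrtfa (0.51), Egr1 (0.44) and Nr2f2 (-0.39) in control hearts and Fos (-1.30), Myocd (-0.46) and Tead1 (0.44) in SRFHKO hearts. At day 25 the group means of Fos were 5.42 in control and 7.10 in SRFHKO hearts without PE, and 5.24 and 5.80 with PE. Its genotype difference without PE, 1.68, was the largest of the 19 and did not pass. The median over the 19 was -0.03 at day 8, 0.02 and -0.06 between genotypes at day 25 without and with PE, and 0.12 and -0.06 for PE in control and SRFHKO hearts.

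Nppb and Nppa are neighbours on the chromosome. Of the genes listed around them, 5 were tested (Mfn2, Plod1, 2510039O18Rik, Clcn6 and Agtrap), and 0 of 5 passed the threshold in any comparison of the limma fit. At an unadjusted p under 0.05 there were 0 for PE in control hearts and 2 for PE in SRFHKO hearts, beside 10.05% and 9.82% of all probe sets. The largest differences with PE in SRFHKO hearts were those of Plod1, which encodes a collagen-modifying enzyme (0.64 ± 0.17, adjusted p = 0.135), Agtrap (0.36) and 2510039O18Rik (-0.15). In control hearts they were Plod1 (0.30), Agtrap (0.12) and Mfn2 (-0.12). Between genotypes they were Mfn2 (-0.36), 2510039O18Rik (-0.11) and Agtrap (-0.11) at day 8. At day 25 they were Plod1 (-0.30), Mfn2 (-0.28) and Agtrap (-0.23) without PE, and Mfn2 (-0.31), 2510039O18Rik (0.08) and Plod1 (0.04) with PE. The median difference over the 5 was 0.06 with PE in control and 0.14 in SRFHKO hearts.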

How the data were processed

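Ventricular RNA of 18 mice was hybridised to 1 Affymetrix array each. The values are the intensity table the authors deposited, made with GCOS per the submitters' processing notes; the sources used here give no version or settings. Each array was scaled to a common trimmed mean (2% cut at each end), and log2(scaled signal + 2) was tested in R 4.3.3 with limma 3.58.1 (lmFit, eBayes with trend, 1 mean per group, all 18 arrays). Probe sets below the 40th percentile of mean signal were left out, and p-values were adjusted over 27022 probe sets by Benjamini-Hochberg at a threshold of 0.05. Exact permutation tests were two-sided. The titles call replicates biological, so p-values reflect the spread between hearts. Members and lists were chosen with earlier results of these data known. All 9 member probe sets are named, with the 5 genes most and the 3 least correlated with Nppa and Nppb, and of the pathway, regulator and neighbour lists the genes past the threshold or else the 3 with the largest differences between 2 groups; marker genes are named where they bear on a result. A list gene was read at its brightest probe set. The limma fit was tried on simulated data in 1 comparison, PE against no PE in SRFHKO hearts, and the other steps were not. Alternatives covered scaling, the pseudocount, the filter, the arrays fitted, covariates, the replicate number as a block and leaving out each array. Promoters, gene order and names came from RefSeq (GRCm38.p6). The table had 0 columns of samples outside those analysed. Same-numbered hearts of different groups did not deviate together (correlations of -0.045 to 0.074 over 14 pairs).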

Additional observations from a re-analysis of the deposited data

Results flagged for a closer look

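The SRFHKO hearts of day 8, the only group of 4, were checked for a heart far from the others. Among the 9 probe sets, 1 had such a heart. The smaller groups were not checked. The second brightest Npr3 probe set read 5.85 in SRFHKO replicate 2 of day 8, and the other 3 hearts of that group read 4.88 to 5.02. The gap to the nearest heart was 0.854 of the range of the group, above Dixon's 95% critical value for 4 samples. Chance flags about 1 in 20 groups, and this was the group of 4 read on 9 probe sets. The cause was not tested.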

How the results depend on the processing

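Of 1894 recomputed values under 31 settings, covering every member difference and count, 1789 kept their direction and side of the threshold, 23 lost and 3 gained a call, 26 counts moved and 53 differences turned in sign, none of them called. Corin between genotypes at day 25 without PE, the 1 member called there, was lost (0 members) with only the compared groups (adjusted p = 0.176), array brightness as a covariate (0.255), no trend (0.104) or only day 25 arrays (0.0701). Leaving out each replicate gave 0 to 1 members called there and 0 to 1 for PE over both genotypes. Nppb over both genotypes was lost (0 members) with brightness (0.96, adjusted p = 0.0610) and no trend (0.130), and Corin over both treatments (0 members) with brightness (0.31, adjusted p = 0.282) and no trend (0.0610). Nppb for PE in SRFHKO hearts gained a call (1 member) with only the compared groups (adjusted p = 0.00144) and only day 25 arrays (0.00121), and in control hearts (1 member) with only day 25 arrays (0.0182). With quantile normalization Nppa was 0.0714 without PE, 0.173 with PE and 0.122 over both, and Nppb 0.00447 without PE. With brightness Nppa was 0.0858, 0.115 and 0.1003, and Nppb 0.0395. Leaving out replicates, Nppb without PE was -0.0913 to 0.0262, Nppa with PE -0.16 to 0.0287, Corin for PE in control hearts -0.0576 to 0.169, Nppa there -0.00638 to 0.25, and the Nppa interaction -0.0652 to 0.20. The other turns were of Furin (14), Npr2 (6), Npr1 (2) and the Npr3 probe sets (12, 1 and 5 from the brightest to the dimmest). With brightness, Furin was 0.0499 between genotypes with PE and 0.0183 for PE over both genotypes, the brightest Npr3 probe set -0.0356 for day by genotype, and the dimmest 0.0147 for PE in control hearts and 0.0603 between genotypes over both treatments. With the replicate block the brightest Npr3 probe set was 0.0463 at day 8 and -0.146 for day by genotype. Leaving out replicates, Furin was -0.248 to 0.140 for PE in control hearts, -0.255 to 0.133 between genotypes with PE, -0.0979 to 0.0961 for PE over both genotypes, -0.0870 to 0.301 for its interaction and -0.0640 to 0.120 for day by genotype. Npr2 was -0.00019 to 0.177 between genotypes with PE and -0.0687 to 0.0201 over both treatments, and Npr1 -0.0806 to 0.520 there with PE and -0.356 to 0.410 for PE in SRFHKO hearts. The brightest Npr3 probe set was -0.284 to 0.0398 between genotypes without PE, -0.243 to 0.0747 for PE in control hearts and -0.101 to 0.315 for day by genotype. The middle one was -0.297 to 0.0562 between genotypes without PE, and the dimmest -0.382 to 0.00251 at day 8 and -0.346 to 0.208 for PE in control hearts. The replicate number as a block changed no call on a member (Nppb over both genotypes 0.93, adjusted p = 0.0270, and Corin without PE 0.52, adjusted p = 0.0435), with 637 calls among all probe sets for Corin's comparison beside 590; the labels do not say that numbers pair hearts. The causes were not tested, and Npr1 was limited by its low signal.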
